A study of Homo sapiens with 6 samples.

Results

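The genes described here are 10 imprinted genes at loci where CTCF is known to act or to bind: H19, IGF2, KCNQ1OT1, CDKN1C, MEG3, DLK1, PEG3, PEG10, SNRPN and GNAS. They were chosen by name, and a listed peak was assigned to a gene when it shared at least 1 bp with the gene's GRCh38.p14 interval extended by 20 kb on either side, called its window. All 10 genes were found in the gene table, which holds 59661 genes, of which 20033 are protein-coding. Their windows held 27 of the 43677 CTCF peaks and 48 of the 78694 H3K27ac peaks. The peaks came from chromatin immunoprecipitation followed by sequencing (ChIP-seq) in KOLF2.1J neurons, that is, neurons grown by a BrainPhys protocol from progenitors of KOLF2.1J, an established line of induced pluripotent stem cells of human origin. The series has 6 libraries, with 2 for CTCF, 2 for H3K27ac and 2 for input chromatin, all from this 1 line without any treatment named in the labels. The replicates of an antibody were merged into 1 deposited list, which leaves no replicate error to report, and no test was made. The lists carry no read counts, the depth behind each value is unknown, and a list of this kind does not separate the maternal from the paternal copy.

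An imprinted gene is transcribed mainly from the copy inherited from one parent. The choice is set by an imprinting control region, a stretch of DNA that carries methylation on the copy from one parent only. CTCF is a zinc finger protein that anchors chromatin loops and can insulate a promoter from an enhancer, and at several imprinted loci methylation keeps it from its binding sites. H3K27ac, an acetylated form of histone H3, marks active promoters and enhancers. Several imprinted genes, among them SNRPN, GNAS and MEG3, are known for their activity in brain.

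The cell label was compared with marker genes first. H3K27ac was listed in the gene interval of 12 of 12 neuron markers and 8 of 8 neural progenitor markers, where 68.8% of all protein-coding genes had one. The highest fold enrichment per gene ran from 5.54 to 47.0 in the neuron markers and from 9.10 to 50.3 in the progenitor markers. Its medians were 17.4 and 32.3. Among markers of other cells, 5 of 6 astrocyte genes had a peak, as did 2 of 6 oligodendrocyte, 2 of 6 pluripotency and 2 of 6 blood and endothelium genes. AQP4, MAG, MOG, MOBP, OLIG2, POU5F1 and NANOG had none. Among the genes of these classes with a peak, the median of the highest fold enrichment was 14.3 for astrocyte and 16.5 for blood and endothelium. It was 5.84 for oligodendrocyte and 6.23 for pluripotency genes. Peaks of progenitor genes and of most astrocyte genes were thus present beside those of neuronal genes, and their part in the results below was not tested.

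Across the 10 genes, CTCF peaks were in 8 windows and H3K27ac peaks in 7. The same held for 82.7% and 81.1% of all protein-coding genes, so neither count stood far from the background. CDKN1C, MEG3, DLK1, PEG10, SNRPN and GNAS had both kinds of peak, a combination found in 73.2% of protein-coding genes. H19 and IGF2 had CTCF peaks only (9.49% of protein-coding genes), KCNQ1OT1 had H3K27ac peaks only (7.80%), and PEG3 had neither (9.46%). The median window held 2 CTCF peaks, as it did over all protein-coding genes, and 6 H3K27ac peaks, against 3 over all protein-coding genes. Gene length was not matched here, and medians for genes as long as each member ran from 2 to 6 H3K27ac peaks. The 48 H3K27ac peaks had a median width of 281.5 bp and a median fold enrichment of 4.35, against 356 bp and 4.74 over the whole list.

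**Figure D1:**
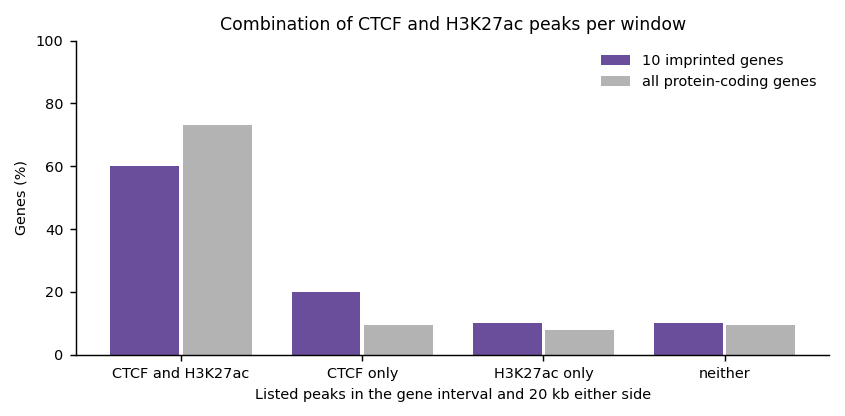
Share of genes (%) by the kinds of listed peak in the gene interval and 20 kb either side, for the 10 imprinted genes (purple) and all 20033 protein-coding genes (grey). Windows with both kinds made up 6 of the 10 genes and 73.2% of protein-coding genes.

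The CTCF peaks were unevenly spread over the genes, with 0 to 7 per window, against 0 to 47 over all protein-coding genes. The windows of H19, IGF2, CDKN1C and GNAS, the 4 with the most, held 21 of the 27, and the remaining 6 windows held 6. Window length was not matched here. Coordinates are 1-based hg38 positions, and the gene table gives intervals without exons. In the map of the windows, these appear as groups of neighbouring summits. A signal value, the authors' measure of peak strength on a scale that is not stated, had a median of 105.3 over the 27 peaks and 91.0 over the whole list. Peaks in the top 25% of the list, with a signal value of at least 178.7, numbered 6 and lay near IGF2, CDKN1C and GNAS. Such a peak was in 3 of 10 windows, against 47.1% of protein-coding genes.

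**Figure D2:**
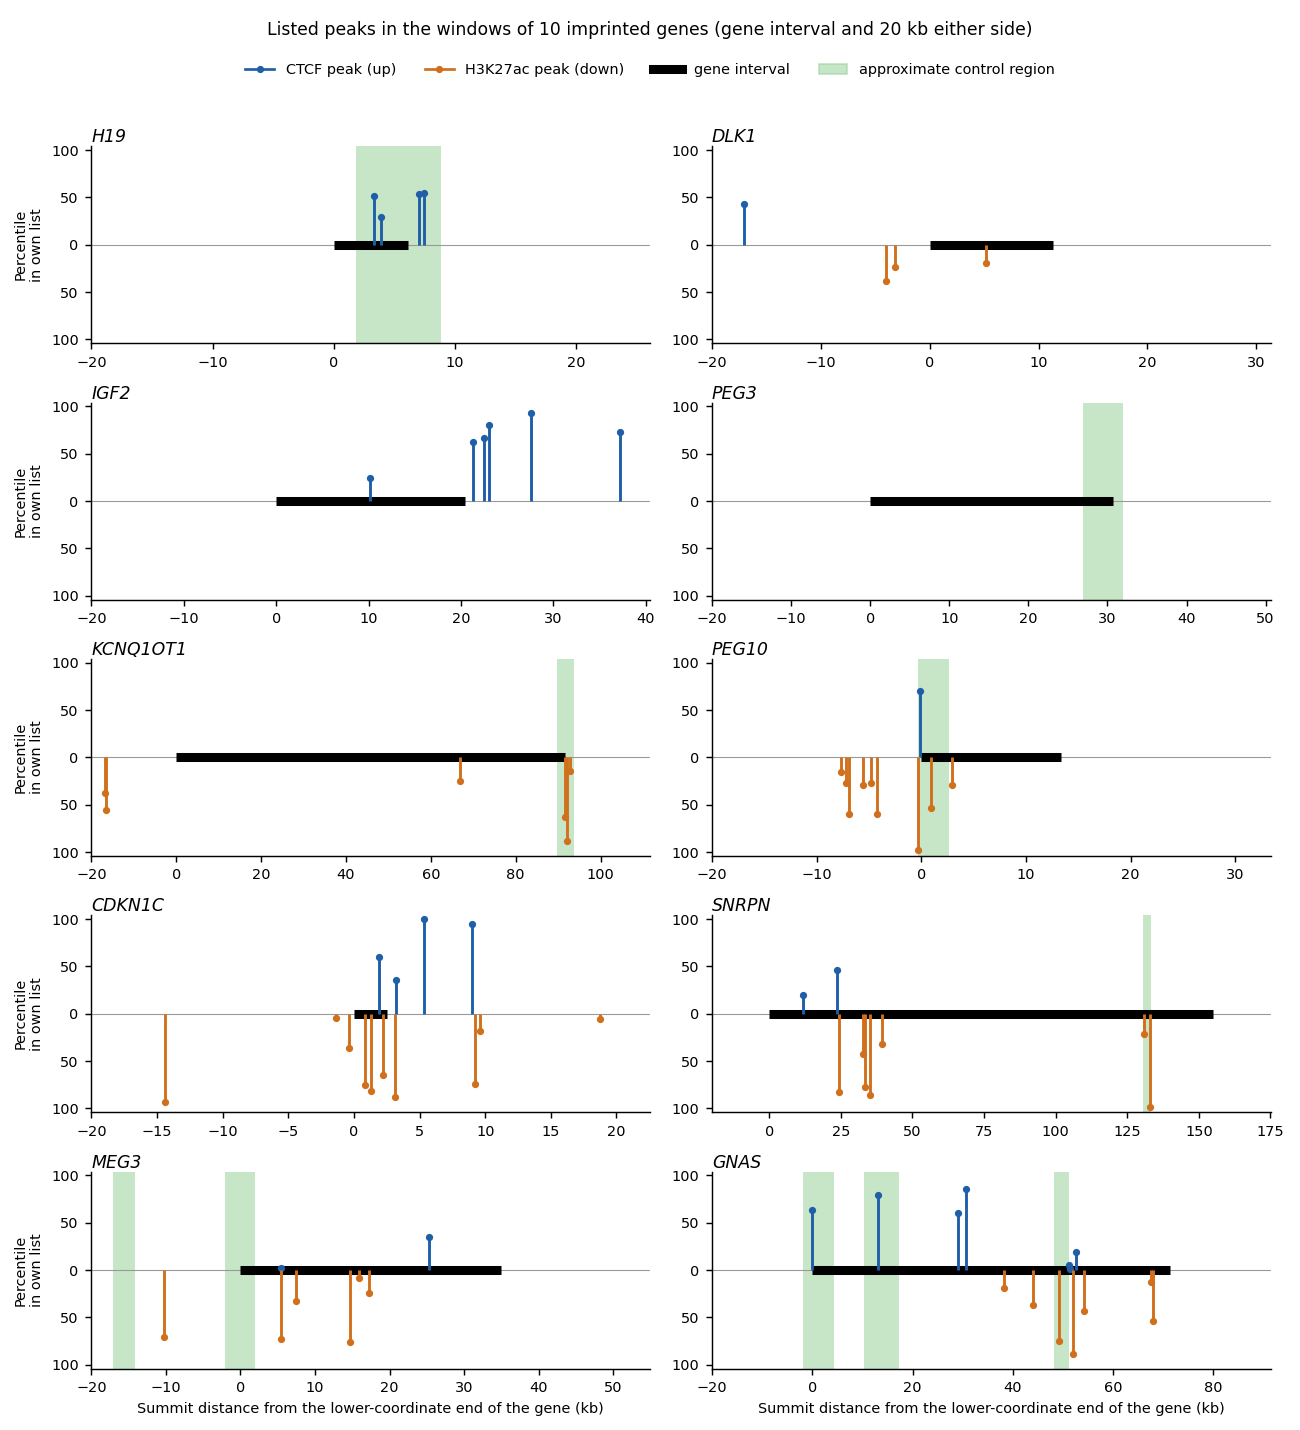
Each panel shows 1 gene window. The x axis is the distance of a peak summit from the gene's lower-coordinate end in kb, and the height is the peak's percentile in its own list (the percentage of listed peaks with a lower value), upward for CTCF and downward for H3K27ac. Black bars are gene intervals and green bands the approximate control regions. All 4 H19 peaks lie in the green band, and the PEG3 panel is empty.

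H19 (chromosome 11, 1995176 to 2001266) encodes a long noncoding RNA transcribed from the maternal copy. Its control region, IC1, is the classic case of a methylation-sensitive CTCF insulator. In the table's coordinates the approximate region holds the higher-coordinate end of H19, where the longest transcripts start, and extends beyond it towards IGF2. All 4 CTCF peaks of the H19 window fell in the approximate position of IC1. They lay from 1998316 to 1998722 (signal value 94.3), from 1998881 to 1999246 (signal value 50.5), from 2002001 to 2002434 (signal value 101.8), and from 2002427 to 2002781 (signal value 105.3), all on chromosome 11. Their strengths were in the middle of the list, at percentiles 51.2, 29.2, 53.9 and 55.03. The outermost summits were 4.09 kb apart. The last and the third peak overlap each other at their edges. The first and second lie inside the table's H19 interval and the others beyond its higher-coordinate end. That interval reaches to the start of the longest transcripts and does not separate shorter ones. All 4 peaks lie in the table's interval of MRPL23, a mitochondrial ribosomal protein gene. More CTCF peaks were listed for H19 than for 79.3% of 1281 protein-coding genes whose length was within 20% of its own.

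The H19 window held no H3K27ac peak. Among genes of similar length, 28.4% likewise had none. The nearest H3K27ac peak on the lower side lay 25.2 kb away and overlapped MRPL23, with a fold enrichment of 5.07. On the higher side the nearest was 96.6 kb away, with a fold enrichment of 2.49. The stretch between these 2 peaks was 127.9 kb long, longer than 93.3% of the stretches between neighbouring H3K27ac peaks, whose median was 3.57 kb. Because the window is empty, the stretch exceeds the window by construction, and the high rank follows in part from that. RefSeq gives 1 start for H19 in the promoter table, that of the longest transcripts and not of any shorter ones. This start lies inside the approximate control region, 950 bp from the nearest CTCF summit. No listed peak of either kind covered it. It is shown because it lies in the gap between the pairs of CTCF peaks. The 250 bases before this start, on the minus strand at chr11:2001267-2001516, are given 5′ to 3′ from the RefSeq table of GRCh38.p14, without capitals because none of the motifs described below was found.
H19 promoter: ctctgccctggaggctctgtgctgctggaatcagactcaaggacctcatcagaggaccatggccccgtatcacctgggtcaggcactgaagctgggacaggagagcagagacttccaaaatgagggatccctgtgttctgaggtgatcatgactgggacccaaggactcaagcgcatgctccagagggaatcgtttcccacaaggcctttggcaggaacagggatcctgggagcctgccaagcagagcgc

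IGF2 (chromosome 11, 2129117 to 2149566) encodes insulin-like growth factor 2, a fetal growth factor made from the paternal copy, and is read from its higher-coordinate end. Its window held 6 CTCF peaks, more than 93.2% of 2076 genes of similar length. The strongest ran from 2156397 to 2156879 on chromosome 11, with a signal value of 280.3 at percentile 93.3, in the table's interval of the readthrough gene INS-IGF2. The peak from 2151918 to 2152373 had a signal value of 200.8, at percentile 79.8. These 2 lay 7.07 kb and 2.57 kb beyond the higher-coordinate end of the gene. A further peak 16.7 kb beyond it overlapped TH, the tyrosine hydroxylase gene, with a signal value of 171.4. Signal values of 128.5 and 145.0 belonged to the peaks 0.803 kb and 2.05 kb beyond that end, and 44.5 to the only peak inside IGF2. The CTCF peaks were thus mostly on the side of the gene that faces away from H19.

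No H3K27ac peak was listed in the IGF2 window, as in 16.8% of genes of similar length. The flanking H3K27ac peaks lay 31.0 kb below and 29.6 kb above the gene, with fold enrichments of 2.49 and 2.56. Both stood low in a list whose median was 4.74. The stretch between them was 81.0 kb long and held IGF2, INS, INS-IGF2 and TH, with 7 CTCF peaks. In the 127.85 kb from H19 to IGF2, 3 CTCF peaks with signal values up to 255.9 and 1 H3K27ac peak were listed, and 2 of these CTCF peaks are those of IC1 beyond H19.

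KCNQ1OT1 (chromosome 11, 2608328 to 2699994) is a long noncoding RNA that runs antisense inside KCNQ1, a potassium channel gene, and silences neighbouring genes on the paternal copy. Its promoter lies in the second control region of this chromosome arm, KvDMR1 or IC2. The window held 6 H3K27ac peaks, and 3 of them fell in the approximate position of KvDMR1. The strongest ran from 2700223 to 2700728 on chromosome 11, with a fold enrichment of 14.4 at percentile 87.9, and its summit lay 0.394 kb beyond the higher-coordinate end, where the RNA starts. Its neighbours there had fold enrichments of 5.96 and 3.13. Elsewhere in the window fold enrichments were 4.12, 5.12 and 3.60. The acetylation was thus highest at the KCNQ1OT1 start, and only 1 listed peak, the one at 3.60, lay inside the body of the gene away from it.

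No CTCF peak was listed in the KCNQ1OT1 window, where 8.37% of 1518 genes of similar length had none. The nearest CTCF peaks were 75.1 kb away on the lower side, in KCNQ1 with a signal value of 341.7, and 184.9 kb away on the higher side, in CDKN1C. The stretch without a CTCF peak was 351.7 kb long and exceeded 97.4% of the stretches between CTCF peaks, whose median was 31.8 kb. An empty window already makes the stretch longer than the window, so this rank was set in part by the choice. The stretch held 25 H3K27ac peaks. Of these, 18 lay between KCNQ1OT1 and CDKN1C, with fold enrichments up to 20.6.

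CDKN1C (chromosome 11, 2883218 to 2885775) encodes p57, an inhibitor of cyclin-dependent kinases made from the maternal copy. Although the gene spans only 2558 bp, its window held 4 CTCF peaks and 10 H3K27ac peaks. These numbers were above those of 82.8% and 94.2% of 719 genes of similar length. The CTCF peak from 2888299 to 2888796 on chromosome 11 had a signal value of 387.7, the highest of the 27, at percentile 99.8 of the list. The peak from 2891989 to 2892503 followed with 295.5 at percentile 95.02. Both overlapped SLC67A1-AS, the antisense RNA of a neighbouring transporter gene, 2.78 kb and 6.47 kb beyond the higher-coordinate end of CDKN1C. The peak inside CDKN1C had a signal value of 121.5 and the one just beyond its end 60.9.

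Acetylation at CDKN1C was spread over the gene and both sides. The 10 H3K27ac peaks covered 7803 bp in all, and their fold enrichments ran from 2.56 to 20.6 with a median of 6.99. The strongest and widest, from 2866658 to 2870441, overlapped KCNQ1DN, a neighbouring noncoding RNA gene. Inside CDKN1C the values were 8.31, 10.5 and 6.13, and 14.4 just beyond its higher-coordinate end. The 2 weakest, with fold enrichments of 2.56 and 2.70, had q-values of 0.0882. Of the 4 CTCF peaks, 3 met an H3K27ac peak. The strongest of the 4 did not.

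DLK1 and MEG3 are neighbours on chromosome 14 and are expressed from opposite parental copies. DLK1 (100726892 to 100738224) encodes a transmembrane relative of Notch ligands and is paternally expressed, whereas MEG3 (100826108 to 100861026) is a maternally expressed long noncoding RNA. The DLK1 window held 1 CTCF peak, 17.0 kb below the gene with a signal value of 74.5, and 3 H3K27ac peaks with fold enrichments of 4.14, 3.51 and 3.34. All 3 were below the list's median of 4.74. Only the last lay inside the gene, and none covered its start. The MEG3 window held 6 H3K27ac peaks with fold enrichments from 2.83 to 8.55, and they covered 8223 bp, the most of the 10 windows. A broad peak from 100829641 to 100833400 with a fold enrichment of 7.60 had its summit 5.45 kb inside the gene, and the strongest ran from 100839196 to 100841457 with 8.55. MEG3 acetylation was thus listed across the first part of the gene body.

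Both control regions of this pair were free of listed peaks. The IG-DMR, between DLK1 and MEG3, had its nearest H3K27ac peak 3.65 kb from its approximate edge, with a fold enrichment of 7.18. For the MEG3 promoter region the nearest was 1.64 kb away. The 2 CTCF peaks of the MEG3 window were both 800 bp wide, a width that recurs in 33.4% of the CTCF list, and neither was strong. The first, with a signal value of 13.0 at percentile 1.74 and a q-value of 0.646, lay inside the broad H3K27ac peak, and the second had a signal value of 58.6. No CTCF peak was listed in the 87.9 kb between the genes, against 9 H3K27ac peaks with fold enrichments up to 7.80. The MEG3 promoter is shown as an example of a control region without a listed peak. RefSeq gives 3 starts within this region, none covered by a peak, and the nearest CTCF and H3K27ac summits to the first lie 5398 bp and 5452 bp away. The 250 bases before it, on the plus strand at chr14:100825858-100826107, hold 1 copy of the hexamer TGCCGC, here as GCGGCA on the other strand and in capitals. This hexamer is the core of the site of ZFP57, a zinc finger protein that maintains methylation at imprinting control regions.
MEG3 promoter: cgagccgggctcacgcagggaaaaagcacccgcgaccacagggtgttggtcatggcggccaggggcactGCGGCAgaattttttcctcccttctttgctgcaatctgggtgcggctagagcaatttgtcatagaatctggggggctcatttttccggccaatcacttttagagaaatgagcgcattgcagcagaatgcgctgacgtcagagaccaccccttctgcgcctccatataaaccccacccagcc

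PEG10 (chromosome 7, 94656325 to 94669695) encodes a protein derived from a retrotransposon. It shares a control region with SGCE, the epsilon-sarcoglycan gene, which is transcribed in the other direction, and both are paternally expressed. The only CTCF peak of its window ran from 94655979 to 94656425 on chromosome 7, with a signal value of 157.95 at percentile 70.1. It spanned the space between the SGCE and PEG10 intervals, and its summit lay 133 bp below the lower end of PEG10, which is the start of the gene. The H3K27ac peak from 94654448 to 94656192, on the SGCE side, had a fold enrichment of 34.1 at percentile 97.6. On the PEG10 side a peak from 94656329 to 94658180 had a fold enrichment of 5.01. The acetylation on either side of the CTCF summit was thus unequal. The other 7 H3K27ac peaks had fold enrichments from 3.21 to 5.54. In all, the window held 9 H3K27ac peaks, more than 90.0% of 1963 genes of similar length.

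SNRPN (chromosome 15, 24823637 to 24978723) encodes a small nuclear ribonucleoprotein, and its promoter region forms part of the Prader-Willi imprinting centre on chromosome 15, unmethylated on the paternal copy. The highest H3K27ac fold enrichment of the 48 peaks, 44.4 at percentile 98.9, was there. That peak ran from 24954766 to 24956999 and overlapped SNRPN, SNURF and the host transcript SNHG14. A small neighbour at the edge of the region had a fold enrichment of 3.45. A second group of 5 H3K27ac peaks, with fold enrichments of 10.9, 4.33, 8.86, 12.8 and 3.88, lay 24.5 to 39.5 kb inside the gene's lower-coordinate end, around other RefSeq starts of SNRPN. Of 4 RefSeq starts of SNRPN, 3 were covered by an H3K27ac peak, against 45.4% of all promoter windows, and 2 of these starts lie under the same peak. No CTCF peak was at the control region, and the nearest lay 106.6 kb away. The 2 CTCF peaks of the window had signal values of 39.3 and 82.4, both below the list's median.

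The promoter at the control region is shown because it carried the strongest acetylation. The 250 bases before the SNURF-SNRPN start, on the plus strand at chr15:24954737-24954986, hold 2 copies of the ZFP57 hexamer, 1 on each strand, in capitals.
SNRPN promoter: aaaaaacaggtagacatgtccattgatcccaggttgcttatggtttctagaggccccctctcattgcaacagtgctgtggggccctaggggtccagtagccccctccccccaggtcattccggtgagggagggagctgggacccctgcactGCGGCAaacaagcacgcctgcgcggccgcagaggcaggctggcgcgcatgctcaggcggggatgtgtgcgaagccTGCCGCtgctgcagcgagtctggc
The hexamer was present in 16.7% of all 35116 promoter windows of 300 bases, so its presence in 1 promoter is not unusual.

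PEG3 (chromosome 19, 56810082 to 56840726) encodes a zinc finger protein expressed from the paternal copy. Its control region holds the ends of PEG3, ZIM2 and MIMT1 in the gene table. Neither the region nor the whole window held a peak. Of 2123 genes of similar length, 16.3% had no CTCF peak and 14.9% no H3K27ac peak. The nearest H3K27ac peaks were 58.3 kb below and 25.6 kb above PEG3, with fold enrichments of 3.14 and 4.37. The nearest CTCF peaks were 45.2 kb below, with a signal value of 53.9, and 258.4 kb above. The stretch without a CTCF peak was 334.3 kb, longer than 97.2% of such stretches. The stretch without an H3K27ac peak was 114.5 kb, longer than 92.3%. Both stretches exceed the empty window by construction, so high ranks follow in part from that. PEG3 was the only 1 of the 10 genes at which neither antibody gave a listed peak.

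GNAS (chromosome 20, 58839748 to 58911192) encodes the stimulatory G protein alpha subunit and has several promoters with different imprints. In the direction of transcription these are the promoter of NESP55, that of the extra-large form XLas beside the antisense RNA GNAS-AS1, exon A/B, and the promoter of the main Gs-alpha transcript. The window held 7 CTCF peaks, more than 95.2% of 1692 genes of similar length, and 7 H3K27ac peaks, more than 75.5%. The CTCF peak at the NESP55 region spanned 58839412 to 58839811 on chromosome 20 and had a signal value of 134.1. That at the GNAS-AS1 and XLas region ran from 58852630 to 58853092 with 199.9, at percentile 79.6. A pair followed between the control regions, from 58868689 to 58869069 with 122.8 and from 58870220 to 58870684 with 234.0 at percentile 86.1. None of these 4 overlapped H3K27ac. The first listed H3K27ac peak lay 38.2 kb inside the gene, beyond all 4.

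The part of GNAS around exon A/B and the Gs-alpha promoter had the opposite makeup. The H3K27ac peak from 58890317 to 58893133, 2817 bp wide, had a fold enrichment of 15.3 at percentile 88.9, and another at exon A/B had 8.09. The 3 CTCF peaks there, each 800 bp wide, were weak, with signal values of 22.96, 12.6 and 37.9 at percentiles 5.54, 1.58 and 19.01. The first and second of them overlap each other and touch the exon A/B region, and the second had a q-value of 0.690. All 3 lay in the broad H3K27ac peak. Stronger CTCF without acetylation and weak CTCF with acetylation were thus found in different parts of 1 gene.

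At GNAS, 2 RefSeq starts had a CTCF summit within the bases printed here, and they are shown for that reason. The motifs searched, on both strands, were GGNGGCAG, the end of the CTCF sites of the H19 control region type, and the hexamer TGCCGC. GGNGGCAG was in 16.7% of all promoter windows of 300 bases and in 21.2% of the 5855 such windows with a CTCF peak. Matches of the 2 motifs may overlap each other, which they do not in the sequences shown. In the sequence at the NESP55 region, plus strand at chr20:58839498-58839747, capitals mark TGCCGC at bases 23 to 28 and CTGCCACC, a match of GGNGGCAG on the other strand, at bases 98 to 105. The CTCF summit is at base 115.
GNAS promoter at NESP55: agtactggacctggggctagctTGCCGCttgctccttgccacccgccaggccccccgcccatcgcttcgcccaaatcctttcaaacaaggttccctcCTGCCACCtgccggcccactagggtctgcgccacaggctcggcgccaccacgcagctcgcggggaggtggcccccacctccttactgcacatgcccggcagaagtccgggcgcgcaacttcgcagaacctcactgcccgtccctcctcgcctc
In the sequence at the XLas region, plus strand at chr20:58852731-58852980, capitals mark GGTGGCAG at bases 141 to 148. The CTCF summit is at base 142, inside the match.
GNAS promoter at XLas: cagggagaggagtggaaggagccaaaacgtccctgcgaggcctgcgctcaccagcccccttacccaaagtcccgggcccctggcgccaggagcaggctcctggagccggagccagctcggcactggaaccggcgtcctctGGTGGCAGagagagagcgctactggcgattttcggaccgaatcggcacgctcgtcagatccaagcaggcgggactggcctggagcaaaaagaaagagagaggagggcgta
A match of letters is a description and does not show that CTCF binds there. Of 6 RefSeq starts of GNAS, 3 were covered by a CTCF peak, against 16.7% of all promoter windows, and 2 of these starts share 1 peak. One start, at exon A/B, was covered by an H3K27ac peak. None of the 6 lay under the broad H3K27ac peak from 58890317 to 58893133, so these counts leave out any start there and do not cover every GNAS promoter.

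**Figure D3:**
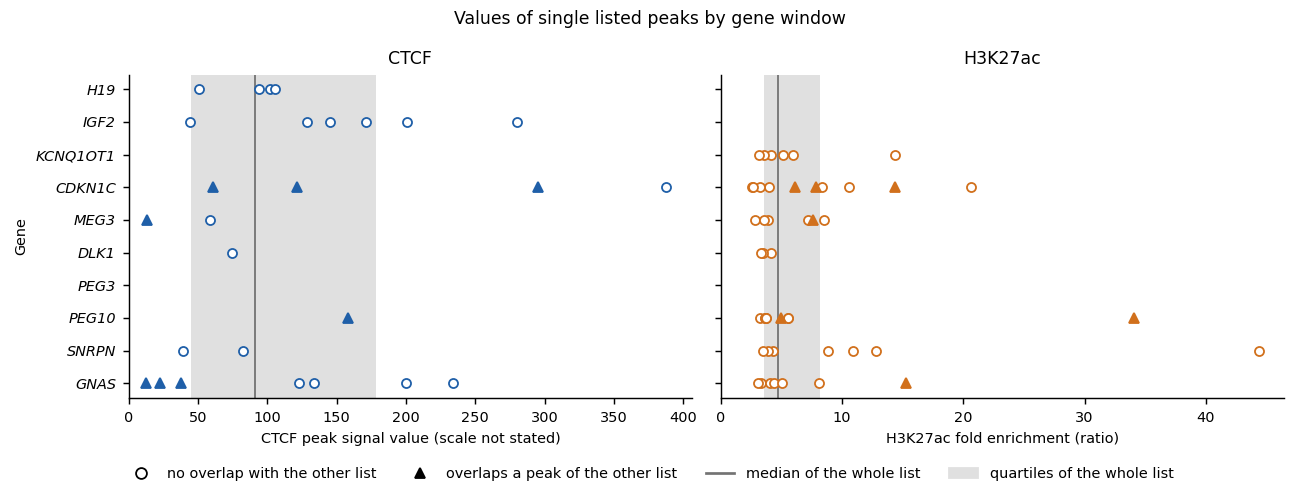
Values of every listed peak by gene window, with the CTCF signal value on the left (scale not stated) and the H3K27ac fold enrichment on the right. Open circles are peaks without and filled triangles peaks with overlap to the other list, the grey line is the median and the grey band the quartiles of the whole list. The 10 CTCF peaks of H19 and IGF2 are all open circles because those windows held no H3K27ac peak. SNRPN and PEG10 hold the 2 highest H3K27ac values.

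Taking the control regions as 1 set, 5 of 10 held a CTCF peak and 4 held an H3K27ac peak. The positions are approximate, from general knowledge rounded outward to 1 kb, and 9 of 10 held an end of the gene they are known for or of a neighbour. Around the ends of all protein-coding genes, regions of 4 kb (40066 in all, either end of a gene) held a CTCF peak in 25.9% and an H3K27ac peak in 38.8% of cases. The control regions are 3 to 7 kb long and not all are centred on a gene end, so these shares are a guide only. IC1, the NESP55 region and the GNAS-AS1 and XLas region had CTCF without H3K27ac. KvDMR1 and the SNRPN promoter region had H3K27ac without CTCF. The PEG10 and SGCE region and exon A/B had both, and the IG-DMR, the MEG3 promoter region and the PEG3 region had neither. With the regions extended by 2 kb either side, 5 of 10 held an H3K27ac peak. The added region was that of the MEG3 promoter, whose nearest H3K27ac peak lay 1.64 kb away. At exon A/B the 2 CTCF peaks were weak and 800 bp wide, with summits just beyond the approximate edge. Without CTCF peaks of that width, 4 of 10 regions held a CTCF peak. Of the 27 CTCF peaks of the windows 9 shared at least 1 bp with a control region, and of the 48 H3K27ac peaks 9 did. Both counts include peaks that lay only partly in the region. No matching share over the whole lists is available, so the counts are a description only.

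Overlap of the lists was close to that of the genome. Of the 27 CTCF peaks, 8 shared at least 1 bp with an H3K27ac peak, or 29.6% (95% Wilson interval 15.9 to 48.5%, counting error only), against 28.1% of the whole CTCF list. The interval treats the peaks as independent, which neighbouring peaks are not, and 21 of the 27 came from 4 windows. The 8 were at CDKN1C (3), GNAS (3), MEG3 (1) and PEG10 (1). A window with such an overlap was found at 4 of 10 genes and at 50.8% of protein-coding genes. At H19 and IGF2, 10 of 10 CTCF peaks were without overlap. Those windows held no H3K27ac peak, so this count was fixed in advance and is not a separate result. The highest H3K27ac fold enrichment per window with a peak had a median of 15.3 over 7 imprinted genes and 18.3 over 16237 protein-coding genes. For the CTCF signal value the medians were 131.6 over 8 imprinted genes and 200.7 over 16575.

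**Figure D4:**
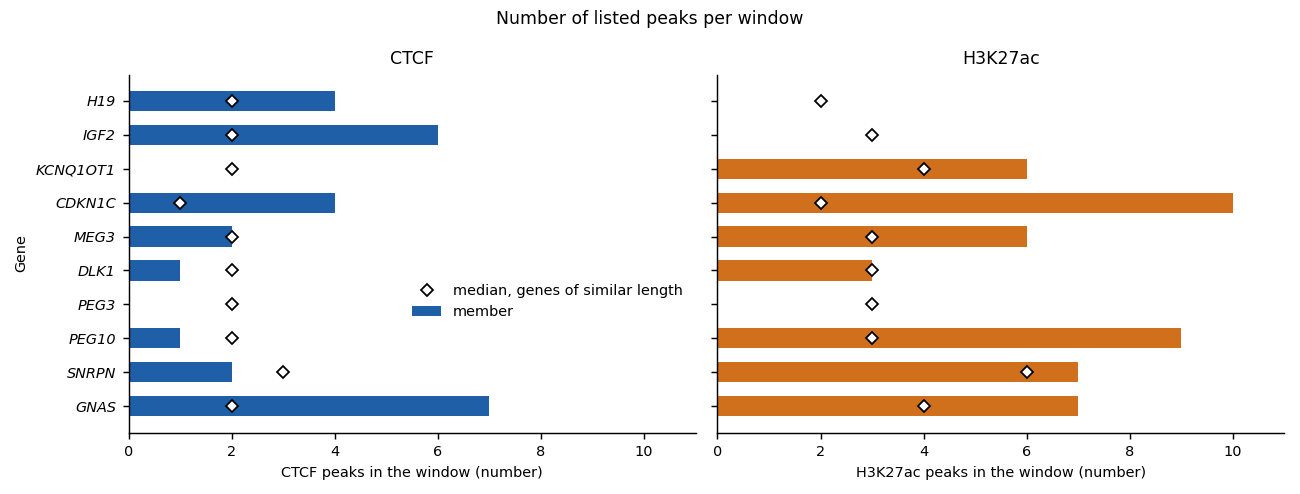
Number of listed CTCF peaks (left) and H3K27ac peaks (right) in the window of each gene, as bars. Diamonds give the median of protein-coding genes of similar length. CTCF numbers are above the diamond at H19, IGF2, CDKN1C and GNAS, and H3K27ac numbers are 0 at H19, IGF2 and PEG3.

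A list of 50 other imprinted genes was examined in the same way. CTCF peaks were in the windows of 43 and H3K27ac peaks in those of 43, and 38 had both. These shares were near the 82.7%, 81.1% and 73.2% of all protein-coding genes. Their medians were 2 CTCF and 4 H3K27ac peaks. Some share peaks with the genes above because their windows meet, and of the 38 genes whose windows do not, 33 had CTCF peaks and 33 had H3K27ac peaks. The highest CTCF signal values were 400.8 near TSSC4, 387.7 near SLC67A1 and 341.7 in the KCNQ1 window. The SLC67A1 and KCNQ1 windows meet that of CDKN1C, and the value at SLC67A1 belongs to the peak described there. The highest H3K27ac fold enrichments were 55.2 near MKRN3, a putative ubiquitin ligase gene, and 52.9 at the overlapping pair BLCAP and NNAT. DIRAS3, which encodes a small GTPase, and ZIM3, a zinc finger gene, had no peak of either kind. No CTCF peak was listed near NDN or AIRN, and no H3K27ac peak near ASCL2.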

How the data were processed

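The files were 2 peak lists of 10 columns, 1 per antibody and each pooled over 2 replicates. Per the submitters' processing notes, cutadapt 1.16 and build hg38 were used; the aligner and peak caller are not given in the sources used here. The CTCF list's deposited signal value has no stated scale. The H3K27ac list's deposited fold enrichment was read as a ratio from its values and layout. Each deposited list also holds a −log10 q, at most 4.78 for CTCF and at that value in 20 of the 27 CTCF peaks described, and a score of at most 1000, which was not used. Depth is unknown, and the input libraries were not analysed here.

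Positions were converted to 1-based. Peaks were matched to RefSeq GRCh38.p14 gene intervals (no exons), extended by 20 kb, with Python 3.11.15 and pandas 2.3.3. Overlap counting was tested on simulated intervals. Overlap meant at least 1 bp. Similar length meant within 20%. The genes compared were protein-coding throughout, also for the noncoding H19, KCNQ1OT1 and MEG3. A percentile is the percentage of a list with a lower value. Promoter sequences were listed for 4 of the 10 genes, in 14 entries. Older symbols were matched through synonyms. Control region positions came from general knowledge.

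All 10 genes were described, with the strongest peak of each list, peaks in control regions and CTCF peaks of the top 25%. For other imprinted genes, the 3 highest values of each list and up to 5 without a peak were named. Members and lists were chosen with earlier results of these data known. The motifs were chosen after the sequences had been seen.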

Additional observations from a re-analysis of the deposited data

How the results depend on the processing

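No paired analysis was possible because the replicates of an antibody were merged before deposit. Leaving out single replicates could not be run either. Of 30 alternatives, 21 left the number within 1.5 times its value and 9 moved it. With only the 50% of each list with the highest values, 5 genes in place of 8 had a CTCF peak (MEG3, DLK1 and SNRPN lost theirs). Among all protein-coding genes, the share with a CTCF peak fell from 82.7% to 67.2% at this setting. The medians per window were 0.5 CTCF peaks and 3 H3K27ac peaks, against 1 and 2 over all protein-coding genes. In the gene interval alone the medians were 1 CTCF peak and 2 H3K27ac peaks. There 28 of the 50 other imprinted genes had a CTCF peak in place of 43, against 55.4% of protein-coding genes. With 50 kb either side the CTCF median was 3.5. All 10 genes then had an H3K27ac peak, as did 88.0% of protein-coding genes. The absence of H3K27ac peaks at H19, IGF2 and PEG3 thus ended at this setting. The gene interval alone and q under 0.05 could not end it, because both settings only remove peaks. Without the CTCF peaks 800 bp wide the CTCF median was 1, and 4 of 21 CTCF peaks overlapped H3K27ac in place of 8 of 27. The medians over all protein-coding genes moved with the same settings, to 1 CTCF peak in the gene interval and 4 with 50 kb. A shorter list or window holds fewer peaks by construction. The unknown depth limits every statement that a peak is not listed.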

Other observations

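Imprinted neighbours on the same chromosome arms differed in the kind of peak listed. On chromosome 15, the MAGEL2 window held 4 CTCF peaks with signal values up to 230.5 and 1 H3K27ac peak, whereas those of MKRN3 and NDN held 7 and 4 H3K27ac peaks and no CTCF peak. The window of UBE3A, the ubiquitin ligase gene of Angelman syndrome, held 2 CTCF peaks and 7 H3K27ac peaks, with fold enrichments up to 50.3. On chromosome 14, the RTL1 window, which overlaps that of MEG3, held 5 CTCF peaks with signal values up to 250.7, above both CTCF peaks in the MEG3 window. The DIO3 window held 3 CTCF peaks and 2 H3K27ac peaks. PLAGL1 on chromosome 6 had 5 CTCF and 14 H3K27ac peaks, and MEST on chromosome 7 had 4 and 7. These values come from the same pooled lists and have no replicate error.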
